A study of Mus musculus with 13 samples.

Results

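The DNA replication machinery was described here through 34 named genes: 12 of the replicative helicase and of origin licensing, 10 of fork enzymes, 5 of nucleotide supply and uracil removal, 4 of chromatin assembly and histone mRNA handling, and 3 regulators of entry into S phase. The genes were listed by name, with earlier results of these data known, and each was read from its transcript cluster (the set of array probes summarized for 1 transcript region) with the highest mean over all arrays. All 34 of 34 were measured, among 19938 genes in all. The cells, primary embryonic fibroblasts of the mouse (cells of connective tissue put into culture), were profiled on 13 Affymetrix mouse gene arrays. The array at 0 h, labelled normothermia (37 °C), preceded 6 arrays of cells in an incubator lowered to 32 °C (hypothermia) and 6 of cells kept at 37 °C (normothermia), at 0.5, 1, 2, 4, 8 and 18 h. No agent other than temperature was applied, and all cells shared the same serum-containing medium and were below full density at the start. Each temperature and time had 1 array, which carried the combined RNA of 3 dishes, and the labels gave no clone, strain or embryo. The courses at 32 °C and 37 °C share the 0 h array. Errors below are therefore the spread between pairs of arrays or over time. They do not measure variation between cultures, and precision is limited by the number of arrays.

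A cell copies its genome once in S phase. Origins are licensed when Cdc6 and Cdt1 load the ring of Mcm2 to Mcm7, which becomes an active helicase once Cdc45, the GINS complex and Mcm10 join it. DNA polymerases, the clamp Pcna and its loader then build the new strands while ribonucleotide reductase and thymidylate synthase supply nucleotides and chromatin factors package the copy. Many of these genes are transcribed in late G1 by E2F factors, which the cyclin E kinase helps to release from the retinoblastoma protein. Fibroblasts in growing culture are a mixture of cells in all phases of the cycle. In such bulk RNA a smaller share of cells in S phase and less RNA of these genes per cell cannot be told apart.

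Promoter windows are shown because E2F sites are the feature these genes are best known to share. RefSeq windows of 250 bases before the transcription start (GRCm38.p6) were at hand for 29 of the 34 genes, and those of Mcm4, Gins1, Gins2, Pole and Ccne2 were not used here. An E2F motif was searched as TTTCCCGC, TTTGGCGC, TTTCGCGC or TTTGCCGC on both strands. It was found in 7 of the 29 genes (24.1%) and in 583 of 27025 genes of the table (2.16%), or, by window, in 7 of 34 (20.6%) and in 611 of 32851 (1.86%). The CCAAT box, the letters CCAAT on either strand, was found in 16 of the 29 genes (55.2%) and in 37.5% of all genes. The 7 genes were Mcm5, Mcm6, Mcm7, Cdc6, Rfc3, Pola1 and Uhrf1, and the windows below are those of the 5 whose values are given on every array. They run 5′ to 3′ on the strand of the gene and end at the base before the start, with the E2F motifs in capitals.
Pola1 (chrX:93632156-93632405, - strand): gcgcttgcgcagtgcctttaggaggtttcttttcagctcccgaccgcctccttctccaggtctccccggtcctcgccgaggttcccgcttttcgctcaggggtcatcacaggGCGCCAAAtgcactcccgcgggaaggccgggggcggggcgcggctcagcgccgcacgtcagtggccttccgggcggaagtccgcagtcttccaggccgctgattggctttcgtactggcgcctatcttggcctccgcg
Mcm6 (chr1:128359706-128359955, - strand): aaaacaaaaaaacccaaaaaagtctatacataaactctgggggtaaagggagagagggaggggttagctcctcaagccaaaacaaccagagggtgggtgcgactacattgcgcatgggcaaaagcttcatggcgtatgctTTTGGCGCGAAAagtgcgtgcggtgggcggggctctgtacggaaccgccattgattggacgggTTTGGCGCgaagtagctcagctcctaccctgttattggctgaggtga
Mcm5 (chr8:75109259-75109508, + strand): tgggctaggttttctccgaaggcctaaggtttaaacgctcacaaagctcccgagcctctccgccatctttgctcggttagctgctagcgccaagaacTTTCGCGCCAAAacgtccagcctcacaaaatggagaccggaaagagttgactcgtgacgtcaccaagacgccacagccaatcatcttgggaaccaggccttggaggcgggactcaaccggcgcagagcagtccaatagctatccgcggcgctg
Mcm7 (chr5:138171884-138172133, - strand): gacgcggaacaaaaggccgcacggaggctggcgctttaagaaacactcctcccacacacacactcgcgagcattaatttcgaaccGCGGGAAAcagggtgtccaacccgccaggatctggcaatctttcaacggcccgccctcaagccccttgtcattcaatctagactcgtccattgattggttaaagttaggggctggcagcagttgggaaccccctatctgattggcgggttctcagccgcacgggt
Uhrf1 (chr17:56304063-56304312, + strand): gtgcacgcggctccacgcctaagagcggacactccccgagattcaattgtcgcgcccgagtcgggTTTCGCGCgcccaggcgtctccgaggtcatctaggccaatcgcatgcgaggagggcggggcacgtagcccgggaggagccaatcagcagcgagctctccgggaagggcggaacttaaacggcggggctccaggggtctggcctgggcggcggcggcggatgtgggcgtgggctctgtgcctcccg
In Mcm5 and in Mcm6 a TTTCGCGC and a TTTGGCGC on opposite strands overlap and give 1 run of capitals, and Mcm6 holds a further TTTGGCGC that starts 47 bases before the transcription start. The motifs of Pola1, Mcm7 and Uhrf1 begin 138, 165 and 185 bases before it. A match describes letters in this window and is neither a measured site nor a cause, and a window without one says nothing of E2F.

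The array of 32 °C at 18 h, on which every 18 h result rests, stood apart from the other 12. Over all genes its mean correlation with the other arrays was 0.9951, against 0.9962 to 0.9975 for the rest. Its log2 values had the highest lower quartile (6.04) and the lowest upper quartile (9.35) of all arrays. Over all transcript clusters the array medians spanned 0.046, and the lowest correlation of any pair of arrays was 0.994. Without the 32 °C array at 18 h there is no 18 h difference to give. The part of its narrower spread in the 18 h results was not tested beyond quantile normalization and relative ranks, given with those results.

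Before 18 h the genes sat slightly higher at 32 °C than at 37 °C, and at 18 h every one of them sat lower at 32 °C. On the log2 scale the median difference, 32 °C minus 37 °C, was 0.17, 0.06, 0.15, 0.13 and 0.04 at 0.5, 1, 2, 4 and 8 h, and -0.53 at 18 h. The medians over all 19938 genes were 0.03, 0.0, 0.0064, -0.0010, -0.0016 and 0.02 in the same order. The number of replication genes higher at 32 °C was 29, 28, 30, 30 and 19 of 34 in the first 5 pairs and 0 of 34 at 18 h, when all 34 were lower (44.1% of all genes). Of all 19938 genes, 11645, 9818, 10302 and 9583 were higher at 32 °C at 0.5, 1, 2 and 4 h. At 8 h, where 47.5% of all genes were higher at 32 °C, the set was split. Ccne2 (-0.49), Cdc6 (-0.28), Mcm2 (-0.25), E2f1 (-0.22) and Ccne1 (-0.16) were then the furthest below, and Chaf1b (0.47), Pole (0.35), Rrm2 (0.33) and Rfc3 (0.32) were the furthest above. All 3 regulators were thus below their 37 °C values at 8 h, having been above them at 1, 2 and 4 h.

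**Figure D1:**
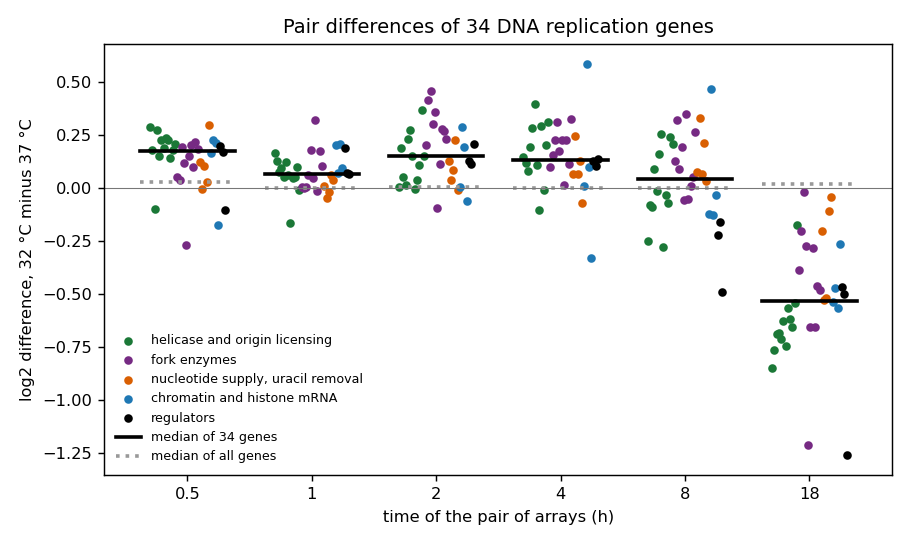
Log2 difference, 32 °C minus 37 °C (vertical axis), of each of the 34 replication genes at each time of a pair of arrays in h (horizontal axis), coloured by role, with the median of the 34 (black bar) and of all genes (dotted bar). The points lie mostly above 0 up to 4 h, spread around 0 at 8 h, and all lie below 0 at 18 h, where the median is -0.53.

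The course of each temperature was then read from the shared 0 h array. At 37 °C the median of the 34 genes ran from -0.08 at 0.5 h to -0.11, -0.15, -0.25 and -0.27 at 1, 2, 4 and 8 h, with 33 of 34 below their 0 h value at 8 h, and stood at 0.0049 at 18 h, with 19 above and 15 below. Of all 19938 genes, 8788 were below 0 h at 8 h at 37 °C, and at 18 h 9945 were above and 9573 below. At 32 °C the medians were 0.09, -0.05, 0.03, -0.09 and -0.21 up to 8 h and -0.54 at 18 h, with 33 of 34 below 0 h (8419 of 19938 genes in all). The gap at 18 h thus held both a low array at 32 °C and an array at 37 °C that lay near its 0 h level. The lowest of the 7 arrays at 37 °C was that of 4 h or 8 h in 33 of 34 genes (23.7% of all genes), Ung being the exception. All 34 were higher at 18 h than at 8 h at 37 °C (45.4% of all genes). At 32 °C the 18 h array was the lowest of 7 in 30 of 34 (15.2% of all genes), the others being Rfc4, Pold1, Ung and Slbp. In 28 of 34 it was the lowest of all 13 arrays (11.8% of all genes).

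**Figure D2:**
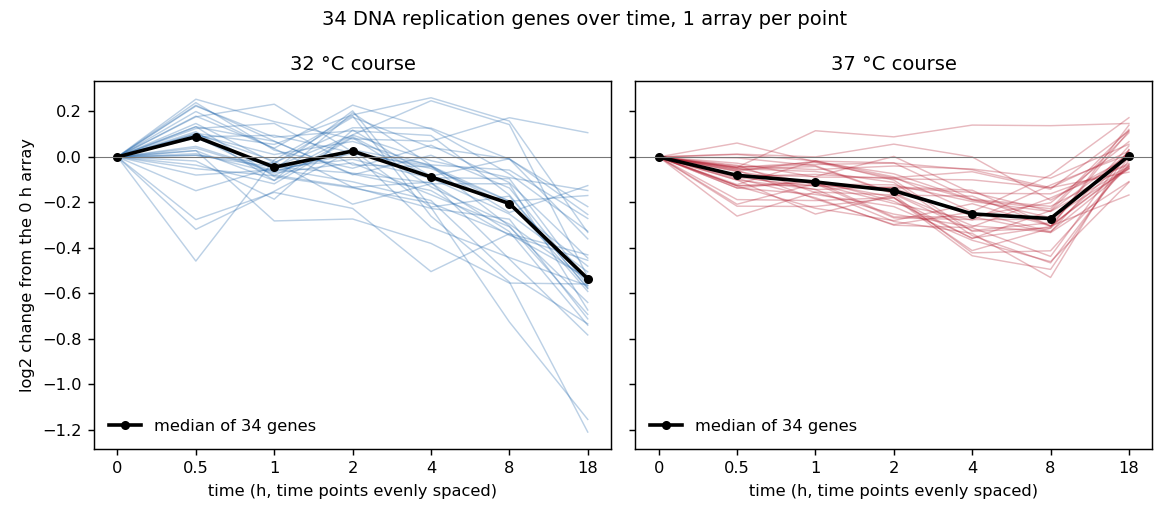
Log2 change from the 0 h array (vertical axis) against time in h, evenly spaced (horizontal axis), for the 34 replication genes at 32 °C (left) and 37 °C (right), 1 array per point, with the median in black. The median reaches -0.27 at 8 h and 0.0049 at 18 h at 37 °C, and -0.54 at 18 h at 32 °C.

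The first test asked whether temperature moved these genes in the 5 pairs before 18 h. None of the 34 passed limma's test with Benjamini-Hochberg adjustment over all genes (adjusted p of at least 0.203), where 0.0% of all genes passed as higher and 0.00502% as lower. At an unadjusted p under 0.05, 13 of 34 were higher at 32 °C and 0 lower, against 6.71% and 5.19% of all genes. The mean difference was positive in 31 of 34, with a median of 0.12, against 50.6% of all genes. In each of the 5 pairs 12 genes were higher at 32 °C (7.16% of all genes) and 0 were lower (4.59%). Chaf1b, a subunit of the histone chaperone CAF-1, had the largest mean (0.33, SE 0.07, adjusted p = 0.204 in limma). Mcm7 followed (0.24, SE 0.05, adjusted p = 0.203 in limma), and then Lig1, the ligase that joins Okazaki fragments (0.22, SE 0.05, adjusted p = 0.203 in limma). Cdc6, Slbp and Ccne2 had negative means (-0.06, -0.10 and -0.04), so 31 of 34 combined a positive early mean with a negative 18 h difference (18.9% of all genes). Mcm4 (0.0042) turned negative after quantile normalization, in relative ranks, and without 1, 2 or 4 h. Ung turned negative without 0.5 h, and Ccne2 turned positive without 8 h. The slope over the order of time points from 0 to 8 h was negative in 33 of 34 genes at 37 °C (median -0.05 per time point) and in 28 of 34 at 32 °C (median -0.04). Of all 19938 genes, the slope was negative in 8468 at 37 °C and in 9308 at 32 °C. No slope passed limma's test in either course (lowest adjusted p = 0.0896 at 37 °C and 0.0989 at 32 °C). Of all genes, 0.0% passed as falling or rising at 37 °C, and at 32 °C 0.00502% passed as falling and 0.01% as rising. At an unadjusted p under 0.05 the slope was negative in 25 of 34 genes at 37 °C and in 10 at 32 °C, against 5.8% and 7.47% of all genes. It was positive in 1 gene, Ung, at 37 °C (6.82% of all genes). Without 8 h the median slope at 32 °C was -0.0147, with 25 of 34 negative. Mcm7, Rfc3, Rfc4, Rfc5, Pola1, Dut and Ung then had the other sign.

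In the 18 h pair, 8 of 34 genes passed as lower at 32 °C than at 37 °C in limma's test over all genes. The test called 0.532% of all genes lower and 0.105% higher. The 8 genes were Mcm3, Mcm4, Mcm5, Mcm6, Mcm10, Cdc45, Pola1 and Ccne2, and 26 of 34 had an unadjusted p under 0.05 (7.13% of all genes as lower). The differences of the 34 ran from -1.26 (Ccne2) to -0.0174 (Rfc4), and 13 were lower by over 1.5-fold (1.94% of all genes). After quantile normalization and in relative ranks the other 33 remained lower and Rfc4 was higher. The 18 h difference is that of 1 array against 1, and its error is borrowed from the 5 earlier pairs, which the 18 h pair is assumed to vary like. The calls depend on those pairs: without the pair at 0.5, 1, 2, 4 or 8 h, 1, 1, 0, 0 and 8 of the 34 passed, and 3 did after quantile normalization and 0 in relative ranks. Of all genes, 27, 43, 14, 28, 165, 77 and 7 passed in the same order, against 127 as reported. The genes changed as well: without 8 h, Mcm2 passed and Mcm5 did not. By role, the helicase and licensing genes had a median of -0.67 with 6 of 12 passing, fork enzymes -0.42 with 1 of 10, nucleotide genes -0.20 with 0 of 5, chromatin genes -0.50 with 0 of 4 and regulators -0.50 with 1 of 3. The roles were not tested against each other.

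**Figure D3:**
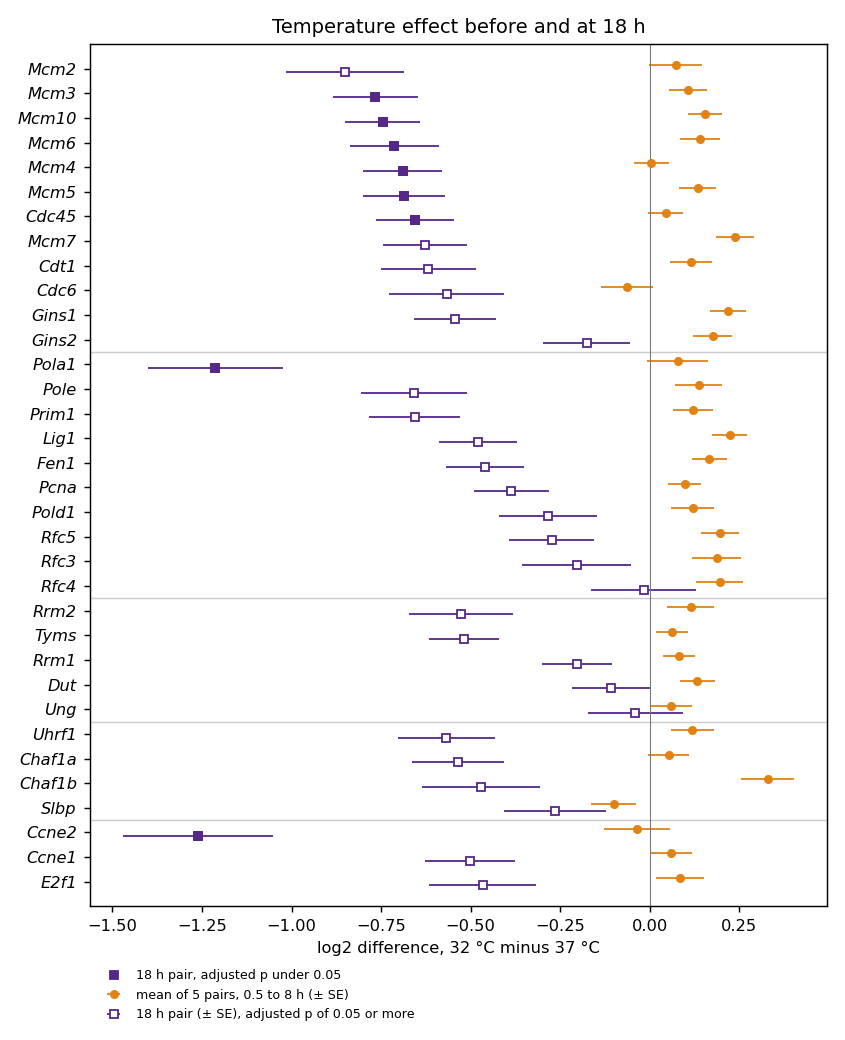
Log2 difference, 32 °C minus 37 °C (horizontal axis), of the 34 genes grouped by role (vertical axis, grey lines between roles), as the mean of the 5 pairs from 0.5 to 8 h (circles) and in the 18 h pair (squares, filled where the adjusted p is under 0.05), each with its SE. All 34 squares lie left of 0, 8 of them filled, and 31 of 34 circles lie right of 0.

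In the sentences that follow, log2 intensities are given at 0 h and then, for each temperature, at 0.5, 1, 2, 4, 8 and 18 h. Mcm2 was at 10.15 at 0 h, 10.35, 10.19, 10.02, 10.04, 9.71 and 9.37 at 32 °C, and 10.06, 10.03, 10.02, 9.89, 9.95 and 10.22 at 37 °C. Mcm3 was at 9.28 at 0 h, 9.36, 9.23, 9.17, 9.08, 8.76 and 8.54 at 32 °C, and 9.18, 9.10, 8.98, 8.96, 8.84 and 9.31 at 37 °C. Both were lowest of all arrays at 32 °C and 18 h, and at 37 °C both had returned at 18 h to slightly above their 0 h level. For Mcm2 the 18 h difference was -0.85 (SE 0.17, 0.555 of the 37 °C intensity) and missed the threshold in limma (adjusted p = 0.0701), with the widest spread of the 7 MCM genes in the earlier pairs. Mcm3 was lower at 32 °C by 0.77 (SE 0.12, adjusted p = 0.0403 in limma), at 0.588 of the 37 °C intensity. Mcm4 read 10.01 at 0 h, 9.86, 9.96, 9.94, 9.89, 9.68 and 9.27 at 32 °C, and 9.96, 9.89, 9.88, 9.81, 9.77 and 9.96 at 37 °C. Mcm5 read 9.70 at 0 h, 9.93, 9.77, 9.62, 9.71, 9.56 and 9.13 at 32 °C, and 9.65, 9.67, 9.61, 9.51, 9.47 and 9.82 at 37 °C. In both the 37 °C arrays drifted down to 8 h and stood higher at 18 h, and in both the 32 °C array at 18 h lay apart from all others. Their 18 h differences were -0.69 (SE 0.11, adjusted p = 0.0413 in limma) and -0.69 (SE 0.11, adjusted p = 0.0439 in limma). Mcm6 gave 9.52 at 0 h, 9.61, 9.53, 9.58, 9.48, 9.21 and 8.82 at 32 °C, and 9.46, 9.47, 9.35, 9.19, 9.23 and 9.54 at 37 °C. Mcm7 gave 10.17 at 0 h, 10.39, 10.25, 10.28, 10.26, 10.00 and 9.59 at 32 °C, and 10.16, 10.13, 10.01, 9.86, 9.84 and 10.22 at 37 °C. Mcm7 was higher at 32 °C in all 5 earlier pairs and lower at 18 h, and Mcm6 was nearly level between the temperatures at 8 h. The 18 h difference of Mcm6 was -0.71 (SE 0.12, adjusted p = 0.0487 in limma), and that of Mcm7 was -0.63 (SE 0.12, adjusted p = 0.0595 in limma).

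Mcm10, which helps to activate the loaded helicase, was at 8.23 at 0 h, 8.32, 8.15, 8.10, 8.01, 7.96 and 7.52 at 32 °C, and 8.13, 8.09, 7.95, 7.90, 7.70 and 8.26 at 37 °C. Its 32 °C values exceeded those at 37 °C in each pair up to 8 h and lay far below at 18 h. The 18 h difference was -0.75 (SE 0.11, adjusted p = 0.0326 in limma), with the lowest adjusted p of the 34 in this test. Cdc45, a partner of the helicase ring, was at 8.44 at 0 h, 8.45, 8.37, 8.41, 8.27, 8.13 and 7.80 at 32 °C, and 8.31, 8.31, 8.30, 8.28, 8.20 and 8.45 at 37 °C. It differed little between the temperatures up to 8 h and was lower at 32 °C by 0.66 at 18 h (SE 0.11, adjusted p = 0.0431 in limma). The loading factors Cdt1 and Cdc6 stood at -0.62 and -0.57 at 18 h and the GINS subunits Gins1 and Gins2 at -0.54 and -0.18, with adjusted p of at least 0.0846 in limma. Gins2 was the member of this role closest to its 37 °C level.

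**Figure D4:**
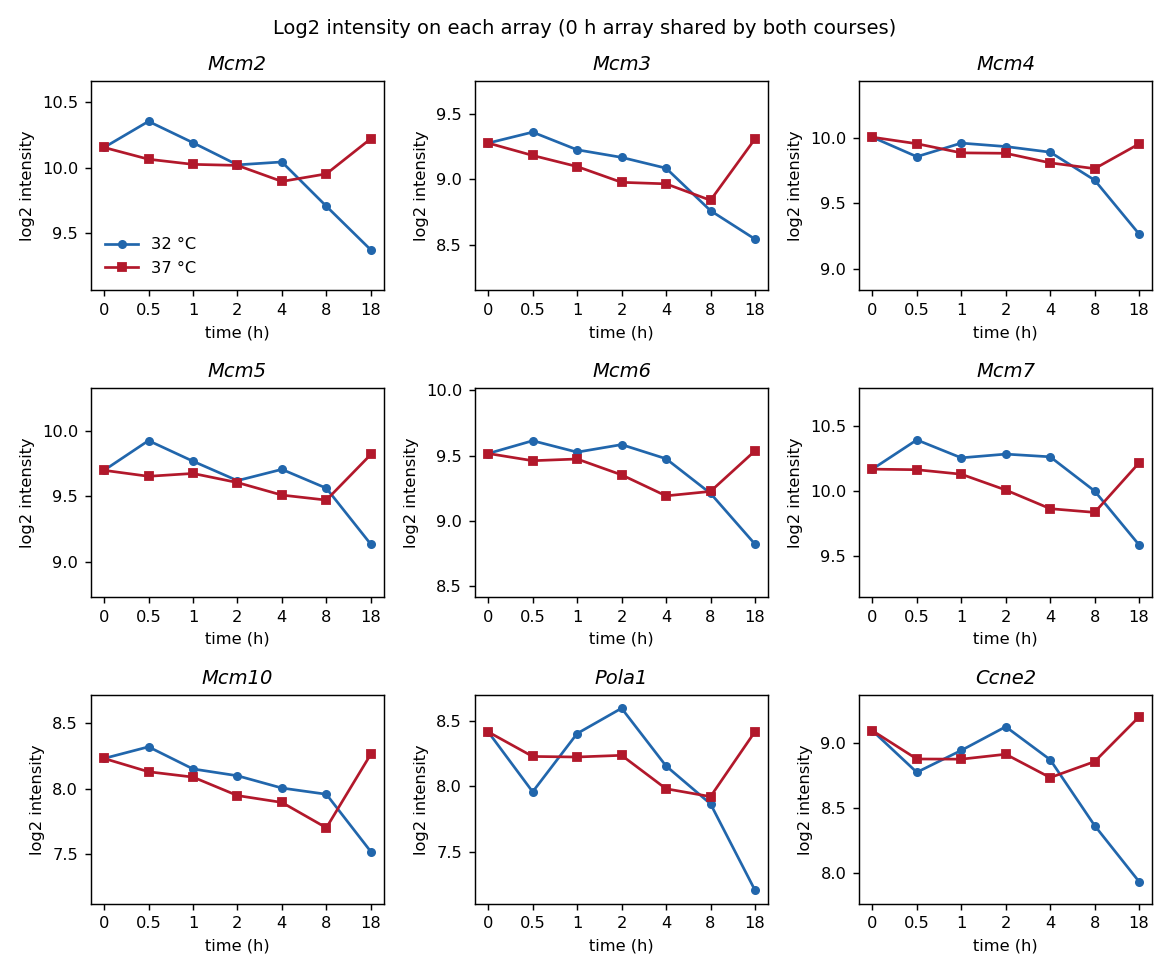
Log2 intensity (vertical axis) on each array against time in h, evenly spaced (horizontal axis), for the 7 Mcm genes, Pola1 and Ccne2 at 32 °C (blue circles) and 37 °C (red squares), with the shared 0 h array and 1 array per point. In every panel the 32 °C array at 18 h is the lowest point, and the 37 °C array is higher at 18 h than at 8 h.

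Whether the 18 h pair departed from the 5 earlier pairs was tested directly. The difference of temperatures at 18 h was below the mean of the earlier pairs in 34 of 34 genes (9172 of 19938 genes in all), with a median of -0.66. It was below each of the 5 in 32 of 34 (18.1% of all genes), Ung and Slbp being the others. Mcm10 (-0.90, SE 0.12, adjusted p = 0.0299), Mcm3 (-0.87, SE 0.13, adjusted p = 0.0474) and Mcm7 (-0.87, SE 0.13, adjusted p = 0.0474) passed in limma, as 0.171% of all genes did as lower and 0.015% as higher. At an unadjusted p under 0.05, 30 of 34 were lower (5.42% of all genes). Without 0.5, 1, 2, 4 or 8 h, 1, 0, 0, 0 and 7 of the 34 passed. Of all genes, 19, 0, 3, 5 and 76 passed in the same order, against 37 as reported. The replication gene that passed without 0.5 h was Pola1, which did not pass with all pairs. Mcm3, Mcm7 and Mcm10 were among those without 8 h. When each course was tested alone, as 1 array at 18 h against the 6 before it, 0 of 34 passed limma at 32 °C (lowest adjusted p = 0.117, 0.0351% of all genes called lower and 0.01% higher) and 0 at 37 °C (lowest adjusted p = 0.458, 0.0% called). The median was -0.47 at 32 °C, with 34 of 34 negative (8871 of 19938 genes in all) and 27 at an unadjusted p under 0.05 (5.41% of all genes as lower). At 37 °C it was 0.15, with 33 of 34 positive (9946 of 19938 genes in all) and 5 at an unadjusted p under 0.05 (4.53% as higher). Without 8 h, 5 genes passed as lower at 32 °C, which were Mcm4, Mcm6, Mcm7, Lig1 and Ccne2, where 55 genes passed in all against 9 as reported.

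Among the fork enzymes Pola1, Pole and Prim1 had the largest 18 h differences and the clamp loader subunits the smallest, an order that was not tested. Pola1, the catalytic subunit of the polymerase that begins each new strand, was at 8.42 at 0 h, 7.96, 8.40, 8.60, 8.16, 7.87 and 7.21 at 32 °C, and 8.23, 8.22, 8.24, 7.98, 7.92 and 8.42 at 37 °C. It varied most between early pairs among the fork enzymes, from 0.27 lower at 32 °C at 0.5 h to 0.36 higher at 2 h, and at 18 h it fell by 1.21 (SE 0.19, adjusted p = 0.0404 in limma), to 0.431 of the 37 °C intensity. Pole, the leading strand polymerase, was at 9.15 at 0 h, 9.26, 9.14, 8.95, 9.04, 9.04 and 8.48 at 32 °C, and 9.10, 9.09, 9.04, 8.81, 8.69 and 9.14 at 37 °C. Prim1, the primase subunit that lays down RNA primers, was at 8.73 at 0 h, 8.70, 8.61, 8.82, 8.60, 8.44 and 8.19 at 32 °C, and 8.60, 8.63, 8.54, 8.37, 8.43 and 8.85 at 37 °C. Pole and Prim1 each differed by -0.66 at 18 h without passing (SE 0.15 and 0.13, adjusted p = 0.1 and 0.0684 in limma), and Pole was still higher at 32 °C than at 37 °C at 8 h. Lig1 (-0.48), the flap nuclease Fen1 (-0.46), the clamp Pcna (-0.39) and the lagging strand polymerase Pold1 (-0.28) lay between, with adjusted p of at least 0.107 in limma. Rfc5, Rfc3 and Rfc4, subunits of the clamp loader, were at -0.27, -0.20 and -0.02, after mean differences of 0.20, 0.19 and 0.20 in the earlier pairs. A second transcript cluster of Pcna gave -0.38 at 18 h.

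The nucleotide genes were, by their median, the closest to their 37 °C level at 18 h. Rrm1, the large subunit of ribonucleotide reductase, was at 11.62 at 0 h, 11.66, 11.55, 11.65, 11.58, 11.56 and 11.35 at 32 °C, and 11.53, 11.54, 11.52, 11.52, 11.48 and 11.55 at 37 °C. Rrm2, its small subunit, was at 11.01 at 0 h, 11.01, 10.96, 11.10, 11.25, 11.15 and 10.48 at 32 °C, and 11.02, 11.01, 11.06, 11.01, 10.82 and 11.01 at 37 °C. Tyms, which makes thymidylate, was at 9.98 at 0 h, 10.01, 9.88, 10.07, 9.89, 9.89 and 9.43 at 32 °C, and 9.90, 9.89, 9.98, 9.82, 9.82 and 9.95 at 37 °C. Rrm2 was above its 0 h level at 32 °C at 4 h and 8 h and then lowest of all arrays at 18 h, while Rrm1 moved within a narrow range. Tyms differed by -0.52 at 18 h (SE 0.10, adjusted p = 0.0621 in limma), Rrm2 by -0.53 (SE 0.14, adjusted p = 0.152 in limma) and Rrm1 by -0.20 (SE 0.10, adjusted p = 0.364 in limma). Dut, which removes dUTP, and Ung, which excises uracil from DNA, stood at -0.11 and -0.04. Ung was the 1 gene above its 0 h value at 32 °C at 18 h (0.11).

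Of the chromatin genes, Uhrf1, which brings the maintenance methyltransferase to newly copied DNA, was at 8.93 at 0 h, 9.02, 9.03, 8.95, 8.62, 8.49 and 8.37 at 32 °C, and 8.81, 8.82, 8.75, 8.52, 8.62 and 8.93 at 37 °C. Chaf1a, the large subunit of CAF-1, was at 8.15 at 0 h, 8.28, 8.30, 8.12, 8.11, 7.94 and 7.67 at 32 °C, and 8.11, 8.10, 8.11, 8.10, 8.06 and 8.21 at 37 °C. Uhrf1 was already low at both temperatures at 4 h and 8 h and separated at 18 h, whereas Chaf1a at 37 °C stayed within a narrow band throughout. Their 18 h differences were -0.57 (SE 0.13, adjusted p = 0.116 in limma) and -0.54 (SE 0.13, adjusted p = 0.117 in limma). Chaf1b was 0.59 higher at 32 °C at 4 h and 0.47 higher at 8 h, and was at -0.47 at 18 h. Slbp, which binds the stem loop of histone mRNA, was at -0.26 at 18 h, and its second transcript cluster at -0.50, and which of them measures the gene could not be settled.

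Ccne2, 1 of the 2 E cyclins, was at 9.09 at 0 h, 8.77, 8.94, 9.12, 8.87, 8.37 and 7.94 at 32 °C, and 8.88, 8.87, 8.91, 8.73, 8.86 and 9.20 at 37 °C. Ccne1, the other, was at 10.76 at 0 h, 10.90, 10.68, 10.63, 10.56, 10.42 and 10.23 at 32 °C, and 10.73, 10.61, 10.51, 10.46, 10.58 and 10.73 at 37 °C. Both were below their 37 °C value at 8 h as well as at 18 h. Ccne2 fell by 1.26 at 18 h (SE 0.21, adjusted p = 0.0431 in limma), to 0.417 of the 37 °C intensity, the largest difference of the set. Ccne1 was at -0.50 (SE 0.13, adjusted p = 0.131 in limma), and E2f1, an activating E2F factor, at -0.47 (SE 0.15, adjusted p = 0.201 in limma).

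Genes around this machinery were read from lists in the same fits, where, at 18 h, 44.1% of all genes were lower at 32 °C, 0.532% were called lower and the median over all genes was 0.02. Of 47 measured further replication genes (origin recognition, other polymerase and clamp loader subunits, checkpoint partners), 42 were lower at 32 °C at 18 h and 7 passed as lower, with a median of -0.42. Hells, a chromatin remodeller, was lower by 1.14 (adjusted p = 0.0218 in limma), Exo1, an exonuclease, by 1.05 (adjusted p = 0.0209) and Top2a, topoisomerase II alpha, by 0.94 (adjusted p = 0.021). Of 31 genes of E2F, retinoblastoma, cyclin and kinase control, 27 were lower, with a median of -0.23, and 3 passed as lower. These were Fbxo5, an inhibitor of the anaphase-promoting complex (-1.50, adjusted p = 0.0137 in limma), Ccna2, cyclin A (-0.73, adjusted p = 0.0282), and E2f8, a repressor E2F (-0.80, adjusted p = 0.0446). Of 25 mitosis genes, 25 were lower, with a median of -0.67, and 8 passed as lower. Among the 8 were Mki67 (-0.90, adjusted p = 0.021 in limma), Aurkb (-0.80, adjusted p = 0.0357), Cenpe (-0.87, adjusted p = 0.0365) and Kif11 (-0.88, adjusted p = 0.0431), while Nuf2 (-0.87) had an adjusted p = 0.0615. At 8 h, 24 of 25 mitosis genes were higher at 32 °C (median 0.22), against 19 of 34 replication genes and 47.5% of all genes. Against the 0 h array the mitosis median at 8 h was -0.20 at 32 °C and -0.41 at 37 °C. The replication medians were -0.21 and -0.27 in the same order. The difference between the lists was not tested.

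**Figure D5:**
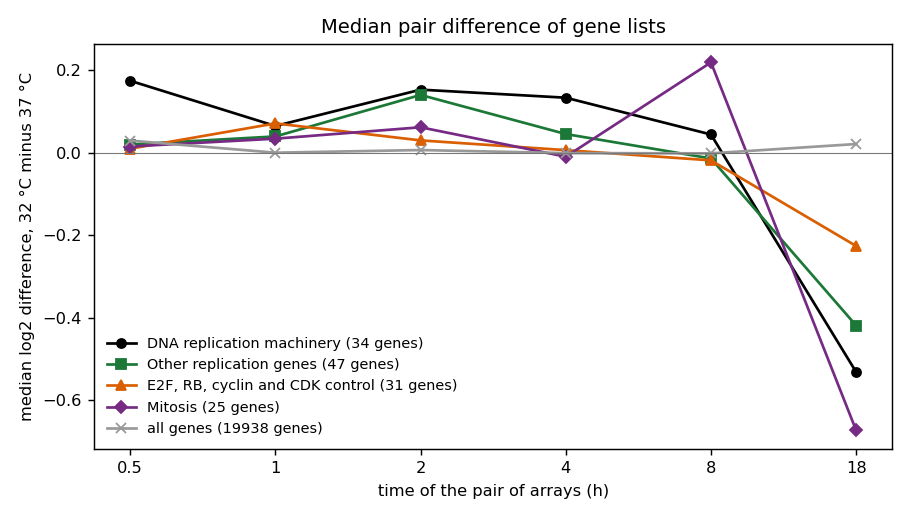
Median log2 difference, 32 °C minus 37 °C (vertical axis), at each time of a pair in h, evenly spaced (horizontal axis), for the 34 replication genes, 47 further replication genes, 31 control genes, 25 mitosis genes and all 19938 genes. All 4 gene lists lie below 0 at 18 h (-0.53, -0.42, -0.23 and -0.67), and the mitosis list is highest at 8 h (0.22).

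Checks of the arrays and cells gave the following. At 18 h the median difference was -0.04 among genes above the median signal, where 31 of the 34 replication genes lie, and 0.08 among the rest. Of 12 fibroblast markers, 11 were above the median of all genes, and their summed level, as log2, was 15.63 at 32 °C and 15.75 at 37 °C at 18 h (range over arrays 15.63 to 15.77 at 32 °C and 15.73 to 15.77 at 37 °C). Of 8 macrophage markers, 1 was above that median, and their sum was 9.62 at 32 °C and 9.31 at 37 °C at 18 h (ranges 9.35 to 9.62 and 9.25 to 9.36). The sums of 6 epithelial markers, 2 of them above the median, were 10.08 and 9.88 (ranges 10.07 to 10.17 and 9.88 to 10.27), and those of 6 endothelial markers, 0 above it, were 8.86 and 8.74 (ranges 8.76 to 8.87 and 8.74 to 8.85). At 18 h, 11 of 12 fibroblast markers were lower at 32 °C, against 44.1% of all genes. Of the macrophage, epithelial and endothelial markers, 7 of 8, 6 of 6 and 3 of 6 were higher (10881 of 19938 genes in all). The largest of these differences was that of the macrophage marker Cd68 (0.57), and 1 macrophage marker passed as higher in limma (0.105% of all genes). No array value is 0, so no marker is listed as absent. The part of these marker shifts in the 18 h difference was not tested.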

How the data were processed

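The deposited table holds linear intensity values of 28853 transcript clusters on 13 arrays. The summarization and normalization that made it are not given in the sources used here. GEO's platform annotation gave 1 gene symbol for 21789 clusters and several for 1621, which were left out. By Entrez identifier, 21698 were updated to RefSeq symbols and 91 kept the old one. The brightest cluster stood for each of 19938 genes (999 had more than 1). Values were log2 transformed without further normalization. The hypoxia and reference RNA experiments of the study were not analysed here.

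Differences between temperatures were fitted with limma 3.58.1 in R 4.3.3 (lmFit, eBayes) on the 12 arrays after 0 h, with the time point as a block and separate 32 °C terms for the 5 early pairs and the 18 h pair. Slopes used the 6 arrays up to 8 h of each course. P-values were adjusted by Benjamini-Hochberg over all genes, with a threshold of 0.05. The fits were also run on simulated data with known changes and independent noise. That run held no array effects, so it says nothing of the error of the 18 h pair. The members and lists were chosen with earlier results of these data known. Values on every array were given for the 3 genes of each role (2 for roles under 5 genes) furthest from 0 at 18 h and for any gene past a threshold. Of each further list, the 3 genes furthest from 0 at 18 h and up to 3 with the lowest adjusted p were named. Promoters were printed for such genes with an E2F motif, at most 6. Cdkn1a and Ccnb1 of the lists were not used here. Alternatives were quantile normalization, relative ranks, genes above the median signal, all transcript clusters, no time point block, time in hours, and each time point left out.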

Additional observations from a re-analysis of the deposited data

Results flagged for a closer look

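The genes below are those named in the report whose difference between temperatures at 18 h departed from that of the 5 earlier pairs in limma's test of that difference (adjusted p under 0.05), which called 0.171% of all genes lower. Since genes were named for a large 18 h difference or a passed test, their number is no result. Among the replication genes these were Mcm10 (-0.90), Mcm3 (-0.87) and Mcm7 (-0.87). In the further lists they were Fbxo5 (-1.50), Exo1 (-1.09), Top2a (-0.98), Aurkb (-0.90), Mki67 (-0.85) and Ccna2 (-0.73), all on the log2 scale. The 18 h side of each is 1 pair of arrays. Each group held 1 array, so no array could be compared with others of its group. Against all arrays, that of 32 °C at 18 h had the lowest mean correlation (0.9951).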

How the results depend on the processing

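At 18 h, 8 replication genes passed as reported, 3 after quantile normalization, 0 in relative ranks and 1 (Mcm4) without the time point block. Of all genes, 127, 77, 7 and 82 passed in the same order. With 1 time point left out, 0 to 8 replication genes passed (14 to 165 of all genes). Against the earlier pairs, 3 passed as reported, 1 (Mcm10) after quantile normalization, 0 in relative ranks, 9 among genes above the median signal, 1 (Mcm10) over all transcript clusters, 0 without the block and 0 to 7 with 1 time point left out. Of all genes, 37, 33, 0, 64, 21, 12 and 0 to 76 passed in the same order. The slope at 32 °C passed for 1 gene (Mcm3) with time in hours, where 131 genes passed in all against 3 as reported. The median slope at 32 °C was -0.0591 to -0.0147 with 1 time point left out. The slope at 37 °C passed for 6 genes when only genes above the median signal were tested, where 155 genes passed in all against 0 as reported, and its median with time in hours was -0.0275 per hour, on another scale by construction. At 18 h at 32 °C, 0 to 5 replication genes passed with 1 time point left out (0 to 55 of all genes). The medians of all 7 tests kept their sign under every alternative run. The ranges with 1 time point left out were 0.1007 to 0.1462 (early pairs), -0.6735 to -0.6574 (18 h against earlier pairs), -0.0597 to -0.0451 (slope at 37 °C), -0.5102 to -0.4503 (18 h at 32 °C) and 0.1235 to 0.1785 (18 h at 37 °C). Over its alternatives the adjusted p of the 8 genes reached at most 0.152 (Mcm3), and each kept its direction. Causes were not tested.

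The arrays were paired by time point in the fits as reported, and the values without that block are those above. With 1 pair at 18 h, single calls are weak, and the error of that pair could not be measured.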
